A study of Mus musculus with 24 samples.

Results

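Liver-specific loss of the clock transcription factor BMAL1 was examined at circadian time 2 (CT2), a time point early in the subjective day, by RNA-seq of polyadenylated RNA from whole mouse liver. The comparison set 3 libraries of liver-specific knockouts (LKO, genotype Alb-Cre; Bmal1f/f) against 3 libraries of floxed controls (F, genotype Bmal1f/f, without Cre), which are 6 of the 24 libraries of the study, chosen by their genotype and time labels. The other libraries used beside them were LKO and F at CT14, global knockouts (KO, Bmal1-/-) and their wild types (WT, Bmal1+/+), both from crosses of Bmal1+/- mice on C57BL/6J, at CT2, and WT at CT14, with 3 libraries in each group. Both LKO and F carry floxed alleles and LKO alone carries the Cre transgene, so the deletion and the transgene cannot be told apart. The Albumin promoter drives Cre chiefly in hepatocytes, and other liver cells keep an intact floxed gene. The labels give no age, sex, feeding or lighting, and do not say that the 3 libraries of a group came from separate animals, so p-values measure the spread between these samples.

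BMAL1 pairs with CLOCK or NPAS2 and binds E-boxes, DNA elements with the core CACGTG, to activate genes that include the Per, Cry and Nr1d genes and the PAR bZIP factors Dbp, Tef and Hlf. PER and CRY proteins feed back to inhibit BMAL1 and CLOCK, while the repressors REV-ERB alpha and beta (Nr1d1 and Nr1d2) act at ROR elements in a second group of clock genes that includes Bmal1, Npas2, Clock, Cry1 and Nfil3. In mouse liver most E-box targets are low early in the subjective day and high around its end, and CRY proteins also act as repressors outside the core loop.

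The 6 libraries held 88995259 to 117602879 estimated counts, within the range of 88995259 to 131544733 over all 24 libraries, and Pearson's r across genes was 0.933 to 0.972 between libraries of the same group. Levels are given as CPM, counts scaled to a common library size, and compare the same gene between libraries. F library 3 and LKO library 3 stood apart from the other 4. The first principal component of the 6, with 35.6% of the variance, placed them at 121.7 and 63.1 and the others between -51.1 and -37.1. They were low in the nuclear transcript Malat1, at 6.51 and 10.2 CPM against 37.6 to 54.9 CPM. The Y-linked gene Ddx3y was at 3.86 and 8.15 CPM against 29.6 to 48.5 CPM. Y-linked transcripts were thus present in all 6 libraries, with Kdm5d at 5.66 to 15.9 CPM, and the X-linked Xist was at 0 to 0.0684 CPM. Genes with the shortest transcripts lay above the group mean in both libraries 3 (median deviation 0.19). Those with the longest lay below it (-0.2 and -0.16). In the other 4, the shortest were at -0.12 to -0.04 and the longest at 0.07 to 0.12. Mitochondrial counts made up 1.37% and 1.82%, against 2.67% to 4.92%. KO library 1 at CT2 had the same pattern by length (0.24 and -0.24), with Ddx3y at 9.61 CPM and Malat1 at 33.9 CPM. What set these libraries apart was not tested. Markers of pancreatic acinar cells summed to 3183 CPM in F library 3 and to between 41.58 and 81.18 CPM in the other 5 libraries, where the acinar carboxypeptidase Cpa1 was at 0 to 0.0313 CPM. None of the 14 tested acinar markers was called, 13 were lower in LKO at an unadjusted p under 0.05, and none was with both libraries 3 left out. Hepatocyte markers, 10 of 10 of which were tested, summed to 112700, 107200 and 109600 CPM in F and to 68880, 67030 and 90630 CPM in LKO. Most of that sum was Alb, which encodes serum albumin, at 76500, 73500 and 75200 CPM in F and 38900, 37000 and 49200 CPM in LKO (log2 fold change -0.85 ± 0.24 SE, adjusted p = 0.143). Of the 10 hepatocyte markers 0 were called, 3 were above 0 and 7 below, and their median log2 fold change was -0.0168. In whole tissue, fewer cells of a type and less RNA per cell cannot be told apart.

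Bmal1 itself was at 29.1, 29.8 and 26.6 CPM in F and at 7.63, 7.91 and 6.57 CPM in LKO. Every LKO library was below every F library, and the residual level was close to that of the KO libraries at CT2, which had 7.47, 7.15 and 7.57 CPM. The gene fell by 1.95 on the log2 scale (SE 0.36, edgeR adjusted p = 0.0112), a call that was lost without LKO library 1 (adjusted p = 0.0629) or LKO library 2 (0.0606) and with both libraries 3 left out (0.0823). At CT14, where F had 3.26, 15 and 10.4 CPM and LKO had 5.96, 5.49 and 5.46 CPM, the groups overlapped and the difference was not called.

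At CT2, 82 of 20514 tested genes differed between LKO and F at an adjusted p under 0.05, or 0.4% of the genes tested. LKO was higher for 56 (0.273%) and lower for 26 (0.127%), the change was at least 2-fold for 41 and 18 of them, and the LKO and F libraries did not overlap for any of the 82. Over all genes tested, LKO lay wholly above F for 6.1% and wholly below it for 4.46%, and 1822 genes (8.88%) had an unadjusted p under 0.05. The test took its estimate of spread from all 24 libraries. When only the 6 libraries of the comparison entered the fit, 1 gene, Tox2, passed. Other tools called more genes. DESeq2 called 410 (213 higher and 197 lower), including all 82, and limma on TPM called 221 (192 higher and 29 lower), on a scale that moved the median log2 fold change of all genes from 0.00836 to 0.113. Of the 82 genes, 31 passed whichever of the 6 libraries was left out, 44 passed with both libraries 3 left out and 65 passed with the replicate number as a block.

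Among clock genes under E-box control, LKO livers had higher levels of several genes than floxed livers at this hour, and none was called lower. Of the 14 listed genes, 5 rose (Tef, Wee1, Cry2, Per3 and Dbp), against 0.273% of all genes tested, and the median log2 fold change of the list was 1.08, against 0.00836 for all genes. With both libraries 3 left out, 5 genes of the list were called higher and 0 lower, with Per1 called in place of Dbp.

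Tef, a PAR bZIP activator of D-box genes, was at 13.3, 16.2 and 22.4 CPM in F and 68, 71.1 and 85.2 CPM in LKO. The lowest LKO library was well above the highest F library (log2 fold change 2.11 ± 0.18, adjusted p = 1.93e-06). Wee1, a kinase that holds cells before mitosis, was at 1.79, 1.82 and 1 CPM in F and 5.83, 6.22 and 7.74 CPM in LKO (2.1 ± 0.29, adjusted p = 0.000688). Cry2, a repressor of the loop, was at 18.2, 20.6 and 20 CPM in F and 35.7, 43 and 52.4 CPM in LKO (1.16 ± 0.16, adjusted p = 0.000707). In each of these 3 genes the libraries of the groups were separate and every fit that left out a library kept the call. Per3, a PER paralogue, was at 1.15, 0.391 and 0.693 CPM in F and 3.4, 3.24 and 2.48 CPM in LKO (2.03 ± 0.33, adjusted p = 0.00454), a call also kept in every such fit. Dbp, the PAR bZIP factor often used as a readout of BMAL1 activity, was at 0.456, 0.498 and 0.44 CPM in F and 3.39, 2.75 and 3.06 CPM in LKO (2.72 ± 0.55, adjusted p = 0.0278). The Dbp groups were far apart, but the call was lost in 5 of the fits that left out a library, those without any F library or without LKO library 1 or 2, with adjusted p from 0.0612 to 0.112, and with both libraries 3 left out (0.142).

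The other 9 genes of the list did not pass. Per1 was at 0.513, 0.684 and 4.59 CPM in F and 3.28, 10.4 and 4.32 CPM in LKO, so that F library 3 alone overlapped the LKO range. Its log2 fold change was 1.64 ± 0.63 (adjusted p = 0.38), and without F library 3 the gene passed (adjusted p = 0.00524). Per2 was at 10.2, 4.93 and 3.47 CPM in F and 15, 7.79 and 11 CPM in LKO (0.87 ± 0.34, adjusted p = 0.397). These groups overlapped through F library 1. Nr1d1, which encodes REV-ERB alpha, was at 12.9, 6.55 and 27.4 CPM in F and 2.48, 4.91 and 5.42 CPM in LKO (-1.87 ± 0.53, adjusted p = 0.151), and Nr1d2 at 8.06, 12 and 6.8 CPM in F and 5.69, 6.2 and 2.18 CPM in LKO (-0.93 ± 0.3, adjusted p = 0.237). Both REV-ERB genes were thus lower in every LKO library than in any F library without a call. The deubiquitinase gene Usp2 differed by 1.24 ± 0.35 on the log2 scale (adjusted p = 0.145), and the E-box repressor gene Bhlhe40 by 1 ± 0.28 (0.14). For Bhlhe41 the value was -2.94 ± 1.08 (0.338), for Ciart, a repressor of the loop, -0.69 ± 1.1 (0.982) and for Hlf 0.35 ± 0.19 (0.645).

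Among clock genes under ROR element control, Cry1 rose, while Npas2, Clock and Nfil3 were not called. Cry1, the other cryptochrome, was at 15.5, 14.7 and 12.6 CPM in F and 47.5, 50.3 and 54.2 CPM in LKO (log2 fold change 1.83 ± 0.19, adjusted p = 2.98e-05). Every LKO library was more than 2-fold above the highest F library. Npas2, the alternative partner of BMAL1, was at 11.1, 10.7 and 7.27 CPM in F and 15.3, 18.8 and 29.8 CPM in LKO (1.14 ± 0.28, adjusted p = 0.0829), separate but not called. Clock (-0.25 ± 0.49, adjusted p = 0.993), which changed sign in 4 of the alternatives, and Nfil3, a repressor at D-boxes (-0.4 ± 0.18, 0.499), were not called. None of 13 kinases and ubiquitin ligases that act on clock proteins was called, and their median was -0.0188.

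**Figure D1:**
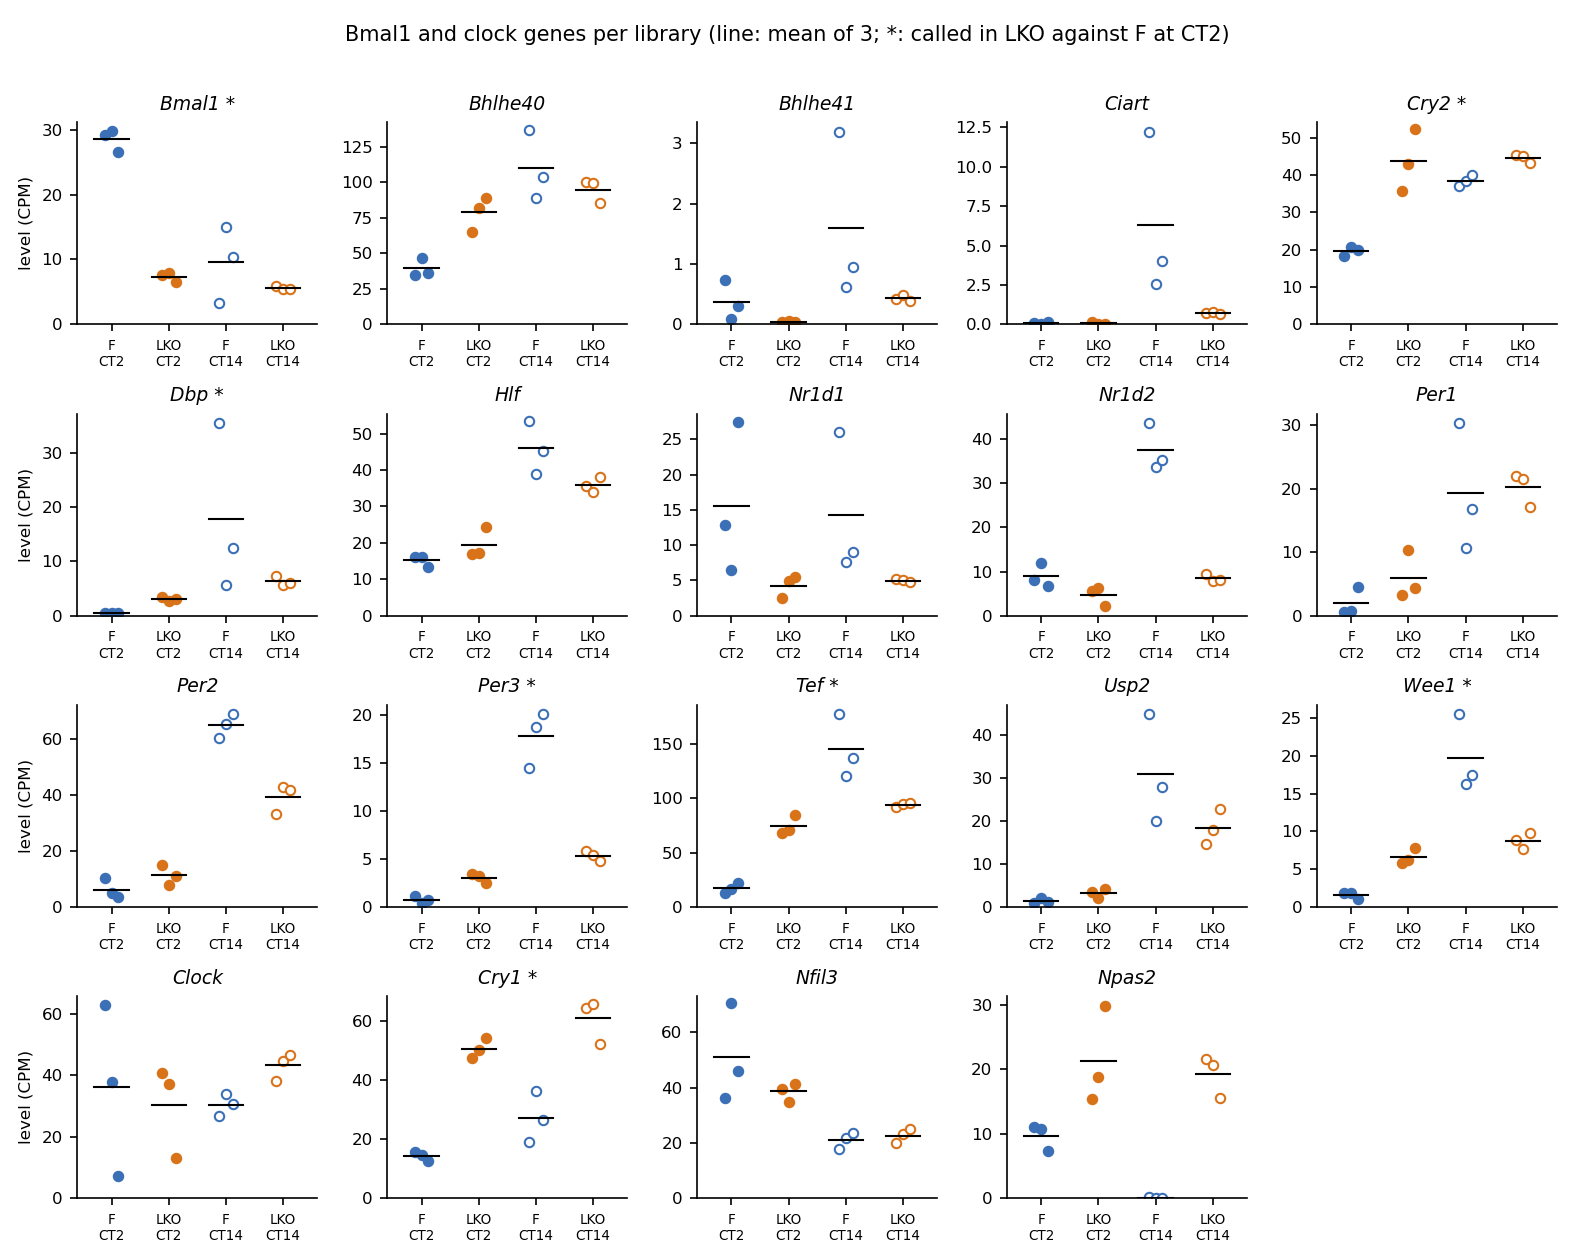
CPM of 19 clock genes, one panel per gene, in each F and LKO library at CT2 (filled) and CT14 (open). Horizontal lines are group means over 3 libraries, and a star beside a gene marks a difference called at CT2. At CT2 the LKO points of Tef, Wee1, Per3, Cry1 and Cry2 lie above all F points, and those of Bmal1 lie below.

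Stretches of promoter are printed for the 4 clock genes among those that rose whose RefSeq promoter window (GRCm38.p6, 250 bases before to 50 after the annotated start) held a clock motif, read 5′ to 3′ along the gene, with the match in capitals. Coordinates are those of the 250 bases printed, which lie before the start. Tef had 2 windows, and the first is the one described. The window of Tef (chr15:81802423-81802672, plus strand) and that of Cry1 (chr10:85185055-85185304, minus strand) held the E-box CACGTG, 127 and 60 bases before the start, and that of Cry1 also held the E-box variant CACGTT on the opposite strand, read as AACGTG, 79 bases before the start. The window of Cry2 (chr2:92434070-92434319, minus strand) held the same variant on the opposite strand, 166 bases before the start. The window of Per3 (chr4:151044666-151044915, minus strand) held the D-box form TTANGTAA at 205 and 158 bases before the start.
Tef: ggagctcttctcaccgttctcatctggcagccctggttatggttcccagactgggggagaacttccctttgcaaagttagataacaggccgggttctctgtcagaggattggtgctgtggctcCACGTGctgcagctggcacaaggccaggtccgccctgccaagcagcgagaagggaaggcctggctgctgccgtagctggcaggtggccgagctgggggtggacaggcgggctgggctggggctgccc
Cry1: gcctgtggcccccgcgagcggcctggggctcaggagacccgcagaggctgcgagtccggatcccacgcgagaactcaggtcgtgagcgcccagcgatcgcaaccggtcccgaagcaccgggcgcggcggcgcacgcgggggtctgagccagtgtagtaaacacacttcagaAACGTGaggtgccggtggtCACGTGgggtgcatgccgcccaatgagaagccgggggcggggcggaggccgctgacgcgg
Cry2: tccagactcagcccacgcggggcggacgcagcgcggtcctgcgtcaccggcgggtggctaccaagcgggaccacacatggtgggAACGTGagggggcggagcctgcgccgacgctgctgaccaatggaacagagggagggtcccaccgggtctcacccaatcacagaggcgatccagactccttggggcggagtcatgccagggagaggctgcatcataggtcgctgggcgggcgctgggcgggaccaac
Per3: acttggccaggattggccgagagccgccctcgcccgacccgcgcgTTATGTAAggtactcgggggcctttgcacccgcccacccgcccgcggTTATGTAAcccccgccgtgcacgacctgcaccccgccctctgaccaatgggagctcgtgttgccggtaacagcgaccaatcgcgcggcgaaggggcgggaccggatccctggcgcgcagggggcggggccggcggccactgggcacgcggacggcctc
Both strands were searched for each motif, and a match describes these letters alone. CACGTG was present for 7 of the 42 genes called higher that had a window, or 16.7%, for 1 of the 20 genes called lower that had one (5.0%) and for 10.8% of the 13154 tested genes with a window. The 7 were Tef, Cry1, Reln, Cryz, Mnt, Spring1 and Gm11454, and the 1 was Ppa1. Among the 11 listed E-box-controlled clock genes with a window, 4 held it (36.4%). CACGTT was present in 6.14%, TTANGTAA in 2.05% of the tested genes with a window. The window of Dbp held none of these 3 motifs.

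The largest increases lay outside the core clock and included genes for a lipase, a homeobox factor and glutathione S-transferases. Tox2, which encodes an HMG-box nuclear protein, was at 0.502, 0.899 and 0.655 CPM in F and 16.9, 14 and 22.9 CPM in LKO. The groups were 26.1-fold apart (log2 fold change 4.71 ± 0.34, adjusted p = 1.68e-07). Lpl, which encodes lipoprotein lipase, the enzyme that releases fatty acids from circulating triglycerides and is low in adult hepatocytes, was at 28.1, 20.7 and 7.84 CPM in F and 298, 231 and 119 CPM in LKO. The 11.4-fold difference (3.52 ± 0.39, adjusted p = 7.21e-05) was kept in every fit that left out a library, although the libraries 3 were the lowest of both groups. Cdx4, a homeobox gene of the posterior embryo, was at 0.0913, 0 and 0.0655 CPM in F and 2.74, 0.991 and 1.99 CPM in LKO (5.18 ± 0.84, adjusted p = 0.00749), and with both libraries 3 left out its adjusted p was 0.0535. Nckap5 was at 0.285, 0.264 and 0.206 CPM in F and 2.37, 2.14 and 3.54 CPM in LKO (3.41 ± 0.54, adjusted p = 0.0028). The predicted gene Gm11454 was at 1.02, 0.821 and 1.19 CPM in F and 8.28, 8.91 and 10.4 CPM in LKO (3.19 ± 0.43, adjusted p = 0.000667). All 5 of these were called whichever library was left out.

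Mu-class glutathione S-transferases conjugate glutathione to drugs and lipid peroxidation products, and 4 of their genes were called higher, against 0.273% of all genes tested. The family was not counted as a list, so these calls give no share of its members. Gstm3 was at 88.1, 84.4 and 91.2 CPM in F and 339, 381 and 1050 CPM in LKO (log2 fold change 2.74 ± 0.43, adjusted p = 0.00286). Gstm2 was at 58.2, 52.4 and 94.7 CPM in F and 241, 265 and 617 CPM in LKO (2.45 ± 0.3, adjusted p = 0.000163), and Gstm6 at 82.1, 70.9 and 99.2 CPM in F and 255, 237 and 471 CPM in LKO (1.93 ± 0.27, adjusted p = 0.000783). LKO library 3 had the highest level of each, and all 3 calls were kept without it. Gstm7 rose by less (0.97 ± 0.2, adjusted p = 0.0291), a call lost without F library 1 or 2 or LKO library 3 (adjusted p up to 0.152), and Gstm1 did not pass (1.57 ± 0.39, adjusted p = 0.0881). These genes are near-copies in one cluster, so how the counting divided reads among them is uncertain. Gstm6 and Gstm7 were named after their values were seen.

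The calls of the other large increases were lost in some of the fits that left out a library. The predicted gene Gm31121 was at 0 in all F libraries and at 1.62, 0.919 and 0.645 CPM in LKO, which is at least 34.8-fold higher when F is set to 3 counts per library (adjusted p = 0.0248, and 0.19 with the replicate block). Elfn1, for a synaptic adhesion protein, was at 0.0913, 0.0391 and 0 CPM in F and 1.82, 1.82 and 1.41 CPM in LKO (5.31 ± 1.08, adjusted p = 0.0306). Cyp2c55, a cytochrome P450, was at 6.62, 4.42 and 1.56 CPM in F and 81.4, 40.9 and 112 CPM in LKO (4.22 ± 0.78, adjusted p = 0.017, and 0.144 with the block). In all 3 the groups were separate. Defb1, a beta-defensin, was at 0.24, 0.322 and 0.0655 CPM in F and 4.8, 4.03 and 2.61 CPM in LKO (4.19 ± 0.84, adjusted p = 0.0269, and 0.0975 with the block). Pls1, an actin-bundling plastin, was at 0.16, 0.0782 and 0.0468 CPM in F and 1.43, 0.967 and 0.816 CPM in LKO (3.51 ± 0.67, adjusted p = 0.016). Hectd2os, a transcript from the strand opposite Hectd2, was at 37.6, 22 and 3.44 CPM in F and 236, 152 and 81.9 CPM in LKO (2.9 ± 0.61, adjusted p = 0.0413), and its reads cannot be told from those of its partner where counting ignored strand. Elfn1 and Defb1 lost their calls without any F library or without LKO library 1 or 2, Gm31121 without F library 1 or 2 or LKO library 1 or 2, Cyp2c55 without any F library, Pls1 without F library 2 or 3 or LKO library 1, and Hectd2os without F library 2 or LKO library 1 or 2, with adjusted p from 0.0552 to 0.155. All of these but Hectd2os also lost their calls with both libraries 3 left out.

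The largest decreases beside Bmal1 included genes for a peptidase, an acetyltransferase, transporters and collagens. Mme, which encodes the peptidase neprilysin, was at 20.5, 25.6 and 3.61 CPM in F and 0.884, 1.05 and 0.75 CPM in LKO, 18.5-fold lower (log2 fold change -4.21 ± 0.62, adjusted p = 0.00211). F library 3 was far below the other F libraries but above every LKO library. Nat8, an acetyltransferase of mercapturic acid synthesis, was at 47.9, 42.3 and 35.8 CPM in F and 1.71, 0.721 and 4.49 CPM in LKO, 18.3-fold lower (-4.19 ± 0.57, adjusted p = 0.000791), with the caution that its family holds near-copies. Slc47a1, the MATE1 exporter of organic cations, was at 66.6, 66.3 and 49.2 CPM in F and 13.1, 13 and 26.8 CPM in LKO (-1.78 ± 0.28, adjusted p = 0.0028). Plpp5, a lipid phosphatase, was at 25.8, 31.9 and 34.4 CPM in F and 8.14, 11.3 and 8.26 CPM in LKO (-1.73 ± 0.23, adjusted p = 0.000667). The collagen gene Col27a1 was at 18.5, 13.9 and 5.95 CPM in F and 2.45, 3.23 and 1.64 CPM in LKO (-2.39 ± 0.33, adjusted p = 0.000695), and the predicted gene Gm19522 at 2.37, 1.84 and 0.655 CPM in F and 0.274, 0.269 and 0.199 CPM in LKO (-2.7 ± 0.46, adjusted p = 0.00666). These 6 genes were called whichever library was left out.

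Slc17a9, a vesicular nucleotide transporter, was at 11.9, 12.6 and 17.3 CPM in F and 2.93, 5.1 and 4.36 CPM in LKO (log2 fold change -1.76 ± 0.32, adjusted p = 0.0112, and 0.0795 without LKO library 1). Papss1, which makes the sulfate donor PAPS, was at 29.1, 30.1 and 35.9 CPM in F and 7.96, 15.5 and 8.72 CPM in LKO (-1.56 ± 0.32, adjusted p = 0.0309, and 0.0626 to 0.164 without any F library or without LKO library 1 or 3). Both had separate groups. Col15a1, another collagen gene, was at 12.4, 16.8 and 6.03 CPM in F and 1.78, 2.11 and 3.62 CPM in LKO (-2.23 ± 0.49, adjusted p = 0.0462, 0.225 with the block and 0.112 to 0.204 without F library 1 or 2 or LKO library 1 or 2). Smim22, for a small membrane protein, was at 2.38, 1.66 and 2.5 CPM in F and 0.415, 0.476 and 0.484 CPM in LKO (-2.25 ± 0.49, adjusted p = 0.0473, 0.0706 with the block and 0.0626 to 0.185 with each library left out in turn). Extl1, an exostosin-like glycosyltransferase, was at 13.5, 12.9 and 20.2 CPM in F and 3.3, 5.14 and 7.84 CPM in LKO (-1.52 ± 0.33, adjusted p = 0.0477, 0.0674 with the block and 0.0626 to 0.215 without any F library or without LKO library 1 or 2). These 3 were near the threshold. With both libraries 3 left out, Slc17a9 (adjusted p = 0.0793), Papss1 (0.191), Smim22 (0.147) and Extl1 (0.0594) lost their calls.

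**Figure D2:**
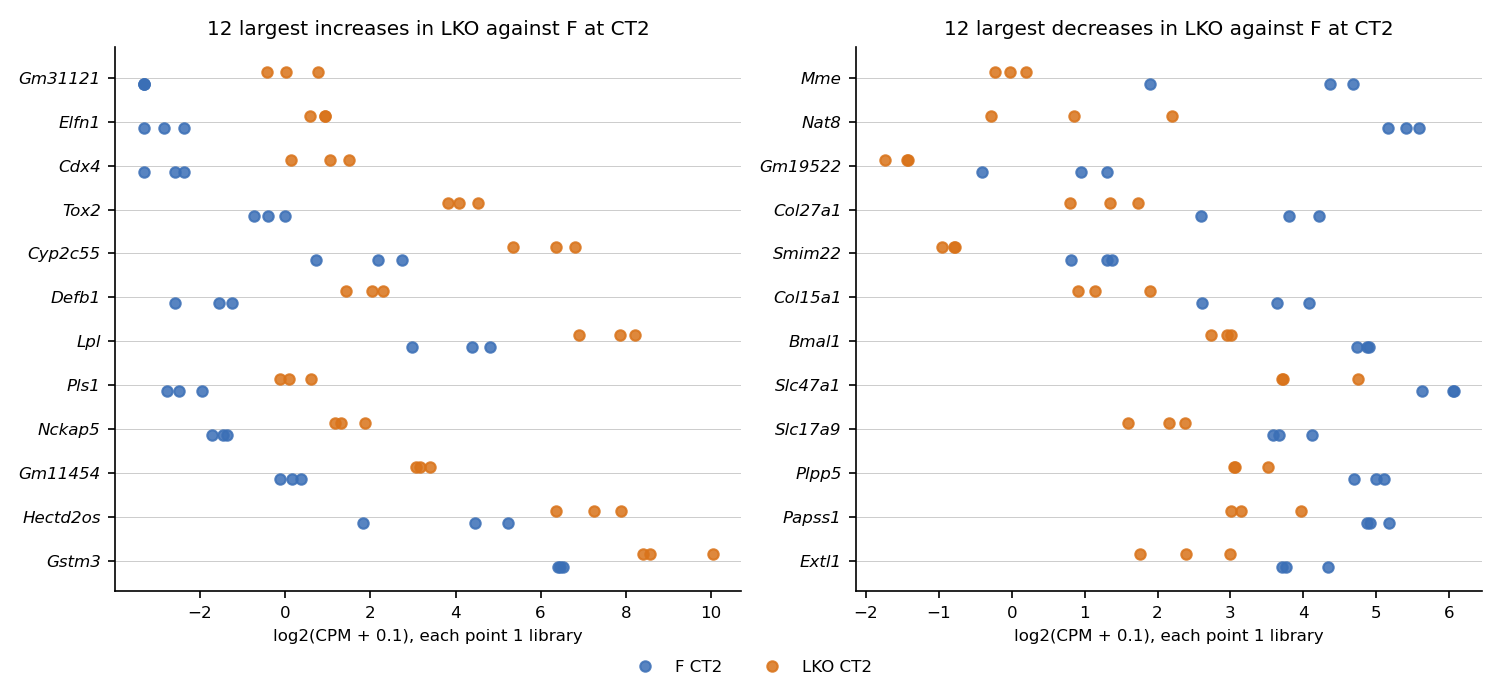
Level of the 12 genes with the largest called increase and the 12 with the largest called decrease, as log2 of CPM plus 0.1, with one point for each of the 3 F and 3 LKO libraries at CT2. The groups do not overlap for any of the 24 genes, and Mme and Lpl are lowest in library 3 of both groups.

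Xenobiotic metabolism genes moved mostly in single members. Of 36 listed genes 3 rose (Gstm3, Cyp2c55 and Cyp2c29), against 0.273% of all genes, none fell, and the list median was 0.237. With both libraries 3 left out 1 was called higher and 1 lower, and the calls of Cyp2c29 (adjusted p = 0.112) and Cyp2c55 (0.127) were lost. Cyp2c29, an abundant hepatic P450, was at 1270, 1130 and 833 CPM in F and 2200, 1980 and 3060 CPM in LKO (log2 fold change 1.16 ± 0.21, adjusted p = 0.0112, and 0.0573 with the replicate block). Every LKO library exceeded every F library.

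In lipid and sterol metabolism, Acss2, which makes acetyl-CoA from acetate in the cytosol, was at 182, 204 and 185 CPM in F and 509, 487 and 753 CPM in LKO (log2 fold change 1.62 ± 0.24, adjusted p = 0.00133). It was the sole called gene among 24 tested genes of lipogenesis and triglycerides, whose median was -0.147. Cholesterol synthesis genes lay mostly above 0, with 23 of 25 listed genes above it against 50.9% of all genes, a median of 0.749 and 15 genes higher at an unadjusted p under 0.05, against 4.63% of all genes. With both libraries 3 left out 12 genes did so and the median was 0.65. Only 1 gene of the list passed the adjusted test, the thiolase gene Acat2, at 130, 135 and 144 CPM in F and 233, 235 and 302 CPM in LKO (0.91 ± 0.2, adjusted p = 0.0421). Its call was lost without F library 1 or 2 or any LKO library (adjusted p from 0.0653 to 0.158) and with both libraries 3 left out (0.13). The list's other members included Nsdhl (0.94, adjusted p = 0.0546), Lss (1.19, 0.0819) and Msmo1 (1.11, 0.091), chosen after their values were seen, and Insig1, which restrains the pathway, was below 0 (-0.25). Abcg5, one subunit of the sterol exporter, was the sole called gene of 24 listed for bile acids and sterol export, whose median was 0.215. It was at 35, 33.2 and 56.4 CPM in F and 97.2, 124 and 70.4 CPM in LKO (1.23 ± 0.23, adjusted p = 0.0162, 0.0984 with the block, and 0.0566 to 0.113 without F library 1 or 2 or LKO library 1 or 2). With both libraries 3 left out, 3 genes of this list were called higher and 0 lower, and Abcg5 kept its call (adjusted p = 0.000938). In the main fit Abcg8, the partner of Abcg5, chosen after its value was seen, changed by the same 1.23 ± 0.28 without passing (adjusted p = 0.0553).

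Several further called genes act on circulating or membrane lipid and were named after their values were seen. Lipc, hepatic lipase, was at 131, 129 and 129 CPM in F and 232, 230 and 238 CPM in LKO (log2 fold change 0.85 ± 0.13, adjusted p = 0.00286), the tightest groups among the genes named. Scd2, a fatty acid desaturase, was at 6.23, 11.6 and 15.5 CPM in F and 54.8, 53.4 and 50.8 CPM in LKO (2.26 ± 0.39, adjusted p = 0.00736, and 0.0609 without F library 1). Spring1, needed for SREBP activation, was at 11.1, 11.5 and 14.2 CPM in F and 25.1, 34.2 and 27.7 CPM in LKO (1.24 ± 0.17, adjusted p = 0.000667). In all 3 the lowest LKO library was above the highest F library. Lists of fatty acid oxidation (29 tested, median 0.0166, Pdk4 the lowest p at 1.51, adjusted p = 0.219) and of the insulin and fasting response (14 tested, Trib3 at -1.79, adjusted p = 0.106) had no called member.

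**Figure D3:**
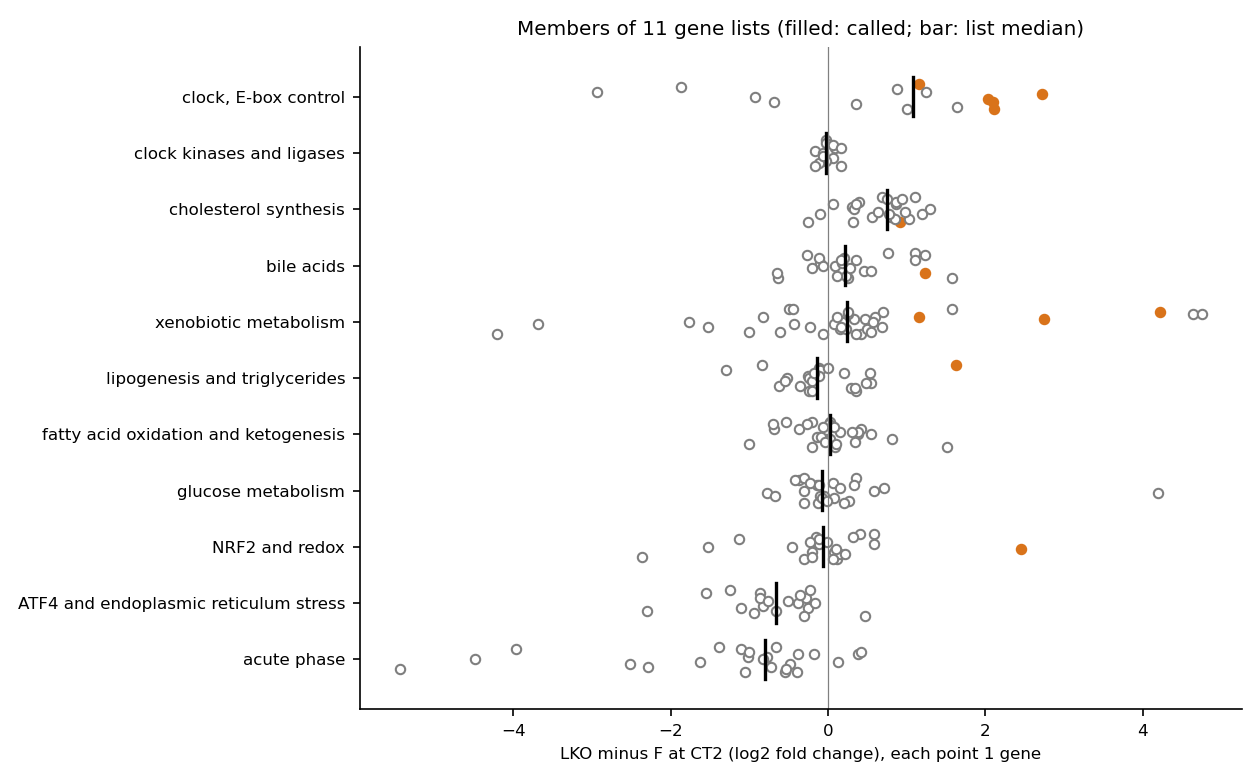
Log2 fold change between LKO and F at CT2 of every tested gene of 11 gene lists, with one point per gene, filled where the gene was called, and a bar at the list's median. The cholesterol synthesis points lie mostly above 0, with a median of 0.749, and the endoplasmic reticulum stress and acute phase points mostly below 0, with medians of -0.656 and -0.798.

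The lists of ATF4 and endoplasmic reticulum stress and of the acute phase lay mostly below 0, though no listed member was called. Of 19 listed genes of ATF4 and endoplasmic reticulum stress, 18 were below 0 against 48.7% of all genes, 10 were lower at an unadjusted p under 0.05 against 4.26% of all genes, and the median was -0.656. With both libraries 3 left out, 4 were lower at that threshold and the median was -0.51. Their summed level was 5736, 5179 and 5706 CPM in F and 3428, 3603 and 3477 CPM in LKO, so that all LKO libraries were below all F libraries. Between LKO and F at CT14 the list's median was -0.00441, with 9 genes above 0 and 10 below. In KO against WT at CT2 it was -0.209, with 8 above and 11 below. The member with the lowest p, Manf, a secreted chaperone-like protein, was at 187, 208 and 266 CPM in F and 94.1, 105 and 79.8 CPM in LKO (log2 fold change -1.24 ± 0.31, adjusted p = 0.0886). In WT at CT2 Manf was at 83.7, 107 and 203 CPM. Genes outside the lists that fell included Tmed9, Lrrc59, Slc39a7, Ostc and Serp1, chosen after their values were seen. Tmed9, a cargo receptor, was at 152, 146 and 160 CPM in F and 80.5, 83.8 and 90.1 CPM in LKO (-0.85 ± 0.15, adjusted p = 0.00697). The ribosome-associated membrane protein gene Lrrc59 (-1.1 ± 0.19, adjusted p = 0.00626), the zinc transporter gene Slc39a7 (-0.84 ± 0.17, 0.0278), Ostc, a subunit of the oligosaccharyltransferase (-0.93 ± 0.19, 0.0333), and Serp1 (-0.95 ± 0.2, 0.0399) fell as well. In WT at CT2, Tmed9 was at 87.4, 92.6 and 94.5 CPM and Lrrc59 at 85.4, 86.6 and 111 CPM. Slc39a7 was at 83.4, 84.5 and 82.9 CPM there, and for these genes every WT library was below every F library. For Ostc and Serp1 the WT and F libraries overlapped. In KO against WT at CT2 none of them was called (Tmed9 0.06, Lrrc59 0.13, Slc39a7 -0.14, Ostc 0.23 and Serp1 -0.2). Tmed9 kept its call between LKO and F whichever library was left out. Lrrc59 lost it without LKO library 1 or 2 (adjusted p up to 0.0513), Slc39a7 without F library 3 or LKO library 1 or 2 (up to 0.162), and Ostc and Serp1 without F library 1 or 2 or any LKO library (up to 0.129 and 0.136).

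Of 24 listed acute phase genes, 21 were below 0, 12 were lower at an unadjusted p under 0.05, and the median was -0.798. With both libraries 3 left out, 10 were lower and the median was -0.82. Between LKO and F at CT14 the list's median was -0.623, with 5 genes above 0 and 19 below. In KO against WT at CT2 it was 0.0659, with 15 above and 9 below. Saa1, a serum amyloid A chosen after its values were seen, was at 150, 1120 and 273 CPM in F and 28.6, 23.4 and 17.1 CPM in LKO. The F libraries thus differed among themselves, with library 2 the highest. Saa4, the constitutive serum amyloid A and the member with the lowest p, was at 471, 695 and 355 CPM in F and 197, 163 and 131 CPM in LKO (log2 fold change -1.63 ± 0.38, adjusted p = 0.0628, and 0.0407 without F library 3). Markers of Kupffer cells and macrophages summed to 637, 1027 and 1922 CPM in F and 1043, 1391 and 876 CPM in LKO, overlapping groups, with 0 of 14 called, and their part in the acute phase values was not tested.

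Other lists held at most 1 called gene each. Igfbp3, the main carrier of IGFs in serum, was called in the growth hormone axis (13 tested), at 10.3, 7.34 and 11.6 CPM in F and 19.2, 26.8 and 22.5 CPM in LKO (log2 fold change 1.23 ± 0.25, adjusted p = 0.0299, 0.0706 with the block, 0.0999 to 0.142 without F library 1 or 2 or LKO library 2, and 0.0521 with both libraries 3 left out). Hsd11b1, which regenerates active glucocorticoid, was called in the glucocorticoid response (15 tested), at 677, 624 and 559 CPM in F and 301, 301 and 329 CPM in LKO (-1 ± 0.22, adjusted p = 0.0462, 0.0824 with the block, 0.0587 to 0.171 without F library 1 or 2 or any LKO library, and 0.0769 with both libraries 3 left out). Both had separate groups. The ketohexokinase gene Khk, the lowest p among 25 glucose metabolism genes, was at 487, 556 and 551 CPM in F and 249, 297 and 391 CPM in LKO (-0.77 ± 0.17, adjusted p = 0.0556, 0.0413 with the block and 0.0105 without LKO library 3). The asparagine synthetase gene Asns, the lowest p among 28 amino acid genes, was at 11.7, 12 and 36.2 CPM in F and 3.31, 3.02 and 0.949 CPM in LKO (-3.04 ± 0.69, adjusted p = 0.0628). Among the lists of cell type markers, 1 gene was called, Reln, a marker of stellate cells (14 tested), at 44, 38.9 and 42.9 CPM in F and 55.9, 68.8 and 72 CPM in LKO (0.64 ± 0.14, adjusted p = 0.0353). That call was lost without F library 1 or 2 or LKO library 2 or 3 (adjusted p up to 0.141) and with both libraries 3 left out (0.0979). Beside these, Wee1 was the called gene among 27 cell cycle genes and Gstm2 among 24 NRF2 and redox genes, and none was called among NAD metabolism, heat shock, sex-biased, interferon, immediate early, zonation and mitochondrially encoded genes.

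The global knockout, compared with its own wild types, shared no library with the LKO comparison at CT2. Of the 56 genes that rose in LKO, 52 were also above 0 in KO against WT (49.9% of all genes) and 32 were called higher there, which is 57.1% of the LKO list and 47.8% of the 67 genes called higher in KO (0.327% of genes tested), with a median of 1.15 in KO and 1.83 in LKO. Of the 26 that fell, 21 were below 0 in KO (49.5% of all genes) and 7 were called lower, which is 26.9% of the LKO list and 17.9% of the 39 KO genes (0.19% of genes tested), with medians of -0.347 and -1.44. Tox2 was at 0.903, 0.557 and 0.595 CPM in WT and 10.9, 7.86 and 7.99 CPM in KO, Lpl at 17, 15.3 and 22.7 CPM in WT and 265, 222 and 215 CPM in KO, and Mme at 18.8, 21 and 27.5 CPM in WT and 0.9, 1.45 and 2.51 CPM in KO. The groups of these 3 genes were separate in both models. Acss2 was at 213, 255 and 197 CPM in WT and 334, 242 and 333 CPM in KO (log2 fold change 0.45 ± 0.23, adjusted p = 0.606), overlapping groups. Per2, not called in LKO, was called in KO (2.55 ± 0.36, adjusted p = 0.000796), from 4.78, 3.46 and 5.23 CPM in WT to 22.9, 26 and 30.2 CPM in KO. The difference between the LKO and KO effects, tested itself, passed for 0 of 20514 genes with edgeR, although 1130 genes (5.51%) had an unadjusted p under 0.05, and DESeq2 called 63 and limma 2. For Per2 it was -1.69 ± 0.48 (adjusted p = 0.579) and for Acss2 1.17 ± 0.33 (0.563).

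**Figure D4:**
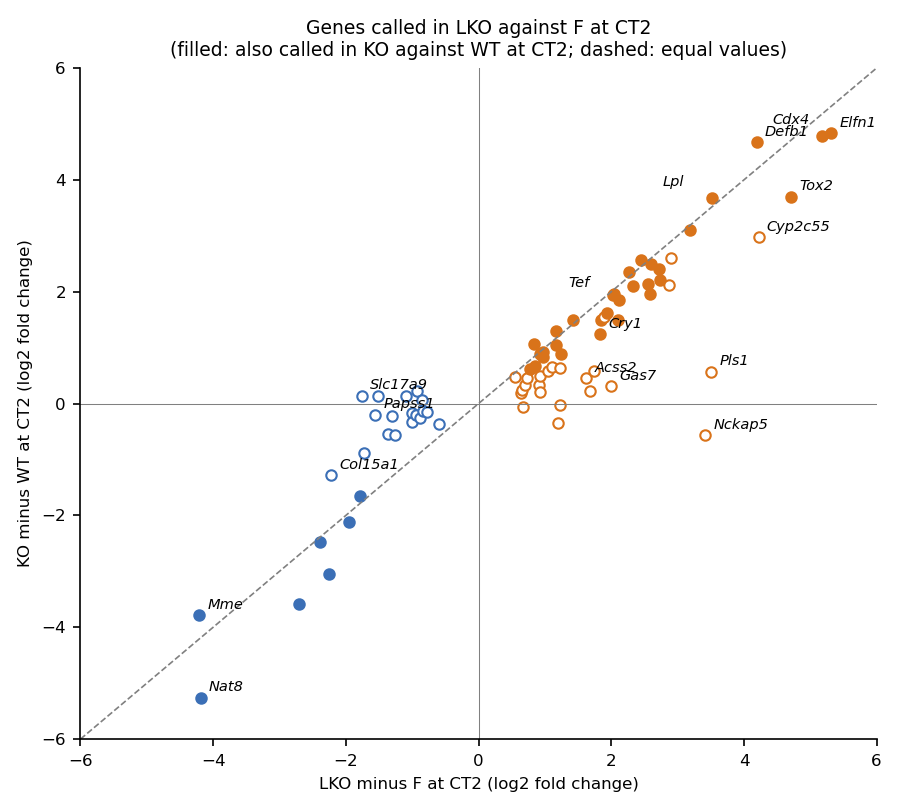
Log2 fold change of the genes called in LKO against F at CT2 (x axis) and the same genes in KO against WT at CT2 (y axis), with the called-higher and called-lower genes in different colours. Gm31121 and Gm11773, each with a group at 0, are left out. Most points on the right lie above 0, with a KO median of 1.15, and points on the left scatter around a KO median of -0.347.

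The floxed and wild-type controls did not always have the same level. On the scale of log2(CPM + 0.1), the WT mean at CT2 was nearer to the LKO mean than to the F mean for 11 of the 56 genes that rose and for 7 of the 26 that fell, and nearer to the F mean for the other 45 and 19. By single libraries, all WT libraries at CT2 lay beyond all F libraries on the LKO side for 18 of the 56 and 9 of the 26. Neither measure was counted over all genes tested. Nckap5 was at 3.64, 4.85 and 1.04 CPM in WT, above the 0.206 to 0.285 CPM of F and around the LKO level. Pls1 was at 4.03, 1.9 and 2.35 CPM in WT, above every LKO library, and Slc17a9 at 5.03, 4.25 and 5.1 CPM in WT, below every F library. For Nckap5, Pls1 and Slc17a9 the LKO libraries were thus closer to WT than to F. The other genes nearer to LKO were Abcg5, Csrp3, Evc2, Grik5, Lipc, Ndrg1, Reln, Siae and Snhg12 among those that rose, and Gmppa, Lrrc59, Nme6, Serp1, Slc39a7 and Tmed9 among those that fell. Of the 18 genes whose WT mean was nearer to LKO, Nckap5, Lipc and Tmed9 were called whichever library was left out, and the other 15 lost their calls without at least 1 library.

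At CT14, 354 genes (1.73%) were called between LKO and F. Of the 56 genes that rose at CT2, 32 were called higher at CT14 (0.814% of genes tested) and 2 lower. Of the 26 that fell, 7 were called lower (0.912%) and none higher. Tox2 had a log2 fold change of 4.75 at CT14, Lpl of 4.4, Mme of -3.85 and Nat8 of -5.09, all called. In WT between CT2 and CT14, 9 of the 56 genes were called higher at CT14 and 11 lower, against 1.1% and 1.44% of genes tested, so the genes that rose in LKO at CT2 included genes high in WT at either time.

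The difference between the LKO effects at CT2 and CT14, tested itself, passed for 23 of 20514 genes (0.112%), 12 with the more positive value at CT2 (0.0585%) and 11 with the more positive value at CT14 (0.0536%). Tef, Per3, Wee1 and Dbp, of the E-box list, had effects of opposite sign at the 2 times. Tef, at 13.3 to 22.4 CPM in F at CT2, was at 178, 121 and 137 CPM in F at CT14, and LKO, at 68 to 85.2 CPM at CT2, was at 92.6, 95.1 and 95.6 CPM at CT14. The LKO libraries thus lay between the low and high F levels at both times (difference of effects 2.73 ± 0.25, adjusted p = 6.08e-06). Per3 was at 14.5, 18.8 and 20.1 CPM in F and 5.84, 5.45 and 4.76 CPM in LKO at CT14, and was called lower there (-1.74 ± 0.32, adjusted p = 0.00456). Wee1 was at 25.5, 16.3 and 17.5 CPM in F and 8.91, 7.69 and 9.76 CPM in LKO at CT14 and was also called lower (-1.17 ± 0.27, adjusted p = 0.0278). These 2 genes are those called in opposite directions at the 2 times. Dbp was at 35.5, 5.66 and 12.4 CPM in F and 7.38, 5.72 and 6.07 CPM in LKO at CT14, overlapping groups with no call (-1.48 ± 0.51, adjusted p = 0.192).

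Npas2 showed the reverse: it was at 0.184, 0.0573 and 0.119 CPM in F at CT14 and at 21.5, 20.6 and 15.5 CPM in LKO, a log2 fold change of 7.3 against 1.14 at CT2. The LKO ranges of the 2 times overlapped, and the F ranges did not. Acss2 was at 140, 274 and 186 CPM in F and 191, 165 and 205 CPM in LKO at CT14, overlapping groups, and was not called there, with a difference of effects of 1.71 ± 0.33 (adjusted p = 0.0382, and 0.129 with the replicate block). Acacb, which makes the malonyl-CoA that limits fatty acid entry into mitochondria, was at 110, 130 and 80.3 CPM in F and 83.9, 119 and 165 CPM in LKO at CT2, overlapping groups, and at 123, 189 and 200 CPM in F and 27.1, 29.7 and 33.5 CPM in LKO at CT14. Cdkn1a, the cell cycle inhibitor p21, was at 5.93, 8.3 and 6.41 CPM in F and 10.8, 7.91 and 25.4 CPM in LKO at CT2, and at 1.62, 3.42 and 2.71 CPM in F and 58.5, 76 and 64.4 CPM in LKO at CT14. Neither gene was called at CT2, and both were at CT14.

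**Figure D5:**
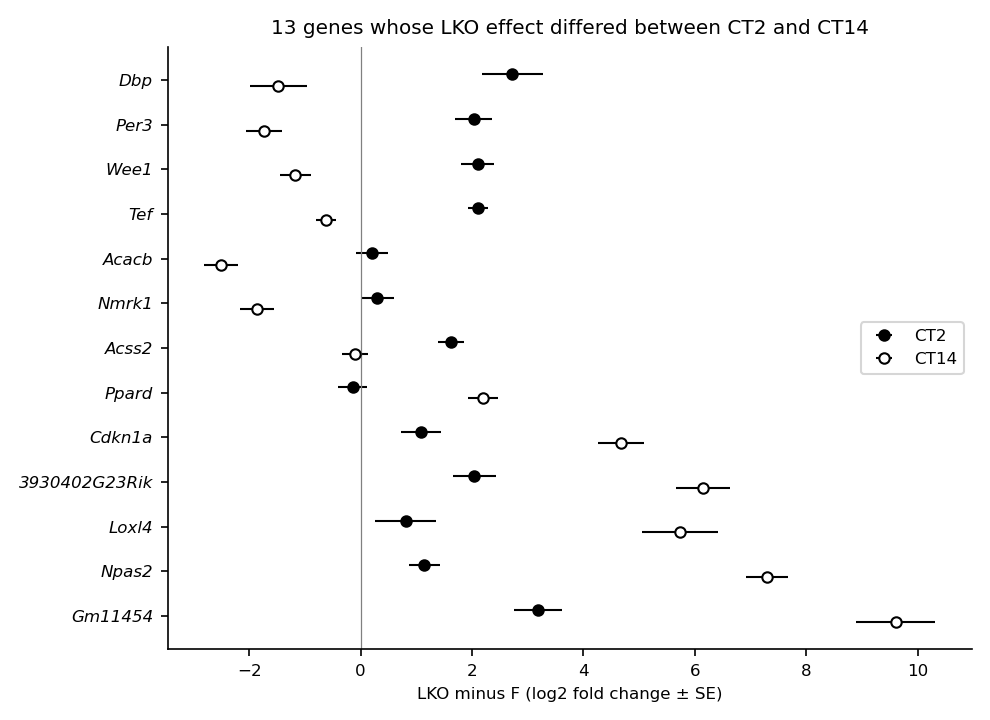
Log2 fold change between LKO and F, with its standard error, at CT2 (filled) and CT14 (open) for 13 genes whose effect differed between the times and that were named by rule. Tef, Per3, Wee1 and Dbp lie above 0 at CT2 and below 0 at CT14, and Npas2 lies at 1.14 at CT2 and 7.3 at CT14.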

How the data were processed

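RNA was from mouse liver, and libraries were made with a stranded poly(A) kit, per the labels' protocols. The submitters' processing notes name StringTie 1.3.1, HISAT2 2.2.1 and fastp 0.23.2 and the build GRCm39. No annotation release or strand setting for counting is stated there. The authors deposited estimated counts per gene, TPM values, which are scaled by length, and a table of their own comparison with log2 fold changes and p-values. Low estimated counts piled up at multiples of 4 (median excess 1.38), so fits were repeated on counts divided by 4.

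Estimated counts were rounded and tested with edgeR 4.0.16 in R 4.3.3: genes kept by filterByExpr (minimum count 10, minimum total 15), TMM scaling, 8 group means over 24 libraries, robust quasi-likelihood F-tests and Benjamini-Hochberg adjustment over 20514 of 56941 genes, with calls at an adjusted p under 0.05 (two-sided). Standard errors are the log2 fold change divided by the square root of F. Alternatives were DESeq2 1.42.0, limma 3.58.1 on log2(TPM + 0.5), other scalings and filters, the 6 libraries alone, each library left out, the replicate number as a block, and both libraries 3 at CT2 left out. On simulated data with 200 changed genes of 20514, 45% of 2-fold and 89% of 4-fold changes were recovered, and 4 of 138 calls were false. The changed genes were drawn from those above 1 CPM, and counts were simulated independently between libraries. These shares thus do not cover lower genes, the shared departure of the libraries 3 or the excess at multiples of 4.

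F and LKO libraries at CT2 share replicate numbers. Deviations from the group means correlated between same-numbered libraries (r = 0.18, 0.14 and 0.31). This was the ground, on these data and not on the labels, for a fit with a replicate block. Deviations sum to 0 over the 3 libraries of a group, so these values are not independent, and the libraries 3 gave the highest. Same-numbered libraries of F and LKO at CT14 had r of -0.15, -0.01 and -0.04. Those of WT and KO at CT2 had -0.05, 0 and -0.01, and those of WT between times 0, -0.05 and 0. In comparisons with these libraries the block thus had no such ground and is given as an alternative only. The fit behind the reported calls had no replicate block, and the fit with it is given where it changes a call; F library 2 correlated slightly better with LKO library 1 (0.19). Promoter windows came from RefSeq tables on GRCm38.p6 and were matched by symbol.

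Named genes were Bmal1, the 12 largest called increases and 12 largest decreases with a group mean of at least 1 CPM, genes of both clock lists, up to 4 called members of each other list (or the lowest p), and the 6 largest differences in each direction between effects. The samples compared and the gene lists were chosen with earlier results of these data known. Some genes that this rule names are not reported here.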

Additional observations from a re-analysis of the deposited data

Results flagged for a closer look

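The effect of LKO at CT2 and that at CT14 differed, by a test of the difference itself on the log2 scale (CT2 minus CT14, edgeR), for 13 named genes. The difference was positive for Dbp (4.2 ± 0.75 SE, adjusted p = 0.0219), Per3 (3.77 ± 0.46, 0.000406), Wee1 (3.27 ± 0.4, 0.000406), Tef (2.73 ± 0.25, 6.08e-06), Acacb (2.71 ± 0.41, 0.00423), Nmrk1, a kinase of NAD salvage (2.16 ± 0.41, 0.0382) and Acss2 (1.71 ± 0.33, 0.0382). It was negative for the nuclear receptor gene Ppard (-2.34 ± 0.37, 0.00545), Cdkn1a (-3.59 ± 0.52, 0.00284), 3930402G23Rik (-4.1 ± 0.57, 0.00186), the lysyl oxidase gene Loxl4 (-4.92 ± 0.83, 0.0192), Npas2 (-6.16 ± 0.45, 1.88e-07) and Gm11454 (-6.42 ± 0.87, 0.00133). Gm11454 was at 0, 0 and 0.00918 CPM in F at CT14, and on the TPM scale its difference was 0.24. Ppard was at 53.8, 36.8 and 49 CPM in F and 36.5, 31.7 and 58.5 CPM in LKO at CT2, and at 9.33, 13 and 11.3 CPM in F and 52.7, 53.5 and 48.3 CPM in LKO at CT14, so that the F level alone was low at CT14. Nmrk1 was at 10, 7.64 and 3.6 CPM in F and 10.4, 8.43 and 7.21 CPM in LKO at CT2, and at 30.5, 30.8 and 26.2 CPM in F and 8.3, 7.11 and 8.68 CPM in LKO at CT14. With the replicate block the difference no longer passed for Dbp (adjusted p = 0.0664), Acss2 (0.129), Acacb (0.088) and Loxl4 (0.114). Same-numbered F and LKO libraries at CT14 had r of -0.15, -0.01 and -0.04, so the data gave no ground for the block at that time. Leaving out 1 library ended the call of Acss2 and Nmrk1 in 9 of 12 cases for each, with adjusted p up to 0.156, and of Dbp and Loxl4 in 6 and 5 cases, with adjusted p from 0.0535 to 0.0952.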

How the results depend on the processing

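For LKO against F at CT2, the 82 calls became 410 with DESeq2, 221 with limma on TPM, 1 with only the 6 libraries, 104 with the replicate block, 90 with both libraries 3 left out, and 41 to 156 when 1 library was left out (41 without F library 1, 60 without F library 2, 156 without F library 3, 49 without LKO library 1, 47 without LKO library 2 and 134 without LKO library 3). Other scaling, filters and division by 4 gave 65 to 117. LKO against F at CT14 gave 756 calls with DESeq2, 845 with limma, 843 with only its own libraries and 174 to 279 when 1 was left out. KO against WT at CT2 gave 371, 201, 70 and 50 to 108. WT between times gave 949 with DESeq2, 307 with the replicate block and 273 to 420 when 1 library was left out. The difference between the effects at CT2 and CT14 gave 130 with DESeq2, 11 with only its own libraries, 39 with the replicate block, 75 with both libraries 3 left out and 12 to 58 when 1 was left out. The difference between LKO and KO effects gave 63 with DESeq2, 2 with limma, 2 with only its own libraries and 0 to 5 when 1 was left out. The cause was not tested. The replicate block changed the calls given beside their genes and ended those of Siae (adjusted p = 0.0769), Gmppa (0.0689), Nme6 (0.0824), Ppa1 (0.0573) and Gm11773 (0.126), and changed no other call of a gene named in the text. Among named values that were not called at CT2, Clock (main value -0.25, and -0.72 to 0.43 when 1 library was left out) changed sign on TPM (0.18), with the block (0.05), without F library 1 (0.43) and without LKO library 3 (0.12), Ciart with both libraries 3 left out (0.38), Acacb there (-0.23), and, when 1 library was left out, Xist ranged from -5.03 to 0, COX3 from -0.61 to 0.16, Acacb from -0.08 to 0.41, Nmrk1 from 0 to 0.63 and Ppard from -0.46 to 0.03. The difference between times for Gm11454 was 0.24 on TPM. Over all named values and alternatives, 1144 kept direction and side of the threshold, 204 lost the call, 28 gained it and 12 changed sign. Genes under 1 CPM rest on few counts at these depths.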

Other observations

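Nnt, which encodes a mitochondrial transhydrogenase, has 2 gene identifiers in the files. One (ENSMUSG00000116207) was at 41.6, 12 and 19 CPM in F and at 0 in all LKO libraries, and was not called by edgeR (adjusted p = 0.409). The other (ENSMUSG00000025453) was at 16.6, 20.8 and 44 CPM in F and 75.9, 84.1 and 106 CPM in LKO. Summed, they came to 58.2, 32.8 and 63 CPM in F and 75.9, 84.1 and 106 CPM in LKO. The authors' deposited table gave log2 fold changes of -13.94 (adjusted p = 7.7e-24) and 1.69 (0.00634) for the same identifiers. Nnt was chosen after its values were seen. According to the authors' deposited table, 184 genes passed an adjusted p under 0.05, 90 higher and 94 lower in LKO, and Tox2 ranked first by p (4.71, 7.49e-32). Of the 82 genes called here, 48 passed in the authors' deposited table in the same direction and 10 had no adjusted p in it.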
